A study of Mus musculus with 4 samples.

Results

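Transcripts of 9 cytoplasmic tyrosine kinase genes were followed in macrophage RNA-seq libraries. The genes are *Syk* and its paralog *Zap70*, the Src-family kinases *Lyn*, *Fgr*, *Src*, *Fyn* and *Yes1*, the Tec-family kinase *Btk*, and *Csk*, the kinase that restrains the Src family. They were found by matching their symbols to the Ensembl identifiers of the deposited count table, which lists 54532 genes, and all 9 had counts in all 4 libraries. The 4 libraries were made from tumors grown for 40 days after 4000000 NB9464 cells, a murine neuroblastoma line, were placed in untreated mice. By the labels, macrophages were drawn from these tumors with CD11b and F4/80 magnetic beads, so any cell that carries these surface proteins or clings to the beads could be in the RNA. The same labels also name bone marrow-derived macrophages and, in the title, an adoptive transfer, so the origin of the RNA is not settled. Libraries M7 and M8 are labelled SYK WT and libraries M9 and M10 are labelled SYK KO. In the study's mice, the deletion of *Syk* is driven by LysM-Cre on a C57BL/6 background, so it is limited to myeloid cells, and *Syk* remains intact in lymphocytes, stroma and implanted tumor cells. The labels give no age, and they do not state whether each library is 1 mouse or a pool, so p-values measure the spread between these libraries, which may be technical.

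Syk is the kinase that reads immunoreceptor tyrosine-based activation motifs (ITAMs), short stretches found in the tails of Fc receptor and C-type lectin receptor complexes. When such a receptor is engaged, Src-family kinases phosphorylate the motif, Syk docks on it through paired SH2 domains, and Syk then phosphorylates adaptors and phospholipase C gamma together with Tec-family kinases. Lyn and Fgr are Src-family members best known from blood cells, Src, Fyn and Yes1 are expressed in many tissues, and Lck and Zap70 do the equivalent work at the T cell receptor. Csk phosphorylates the C-terminal tyrosine of Src-family kinases and keeps them inactive.

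Total counts were between 20755886 and 23518045 per library, and 3 counts, taken as the smallest detectable signal, came to between 0.109 and 0.163 counts per 1000000 (CPM). Mitochondrial genes took 2.20% and 2.34% of the counts in M7 and M8, against 6.00% and 15.9% in M9 and M10. The 10 macrophage marker genes, all present in every library, summed to 1294 and 917 CPM in M7 and M8 and to 10373 and 6225 CPM in M9 and M10, and all 10 passed the test as higher in M9 and M10. Of 8 fibroblast markers, 6 were lower there, with sums of 12558 and 14452 CPM against 4058 and 4960 CPM. The label of macrophages thus had its markers in every library, beside abundant fibroblast transcripts in every library. The fibroblast sum exceeded the macrophage sum in M7 and M8 and lay below it in M9 and M10. Of 6 sympathoadrenal genes examined as tumor markers, *Th* and *Dbh* had 0 counts in all 4 libraries, while *Hand2* had 7182, 7403, 3666 and 5257 counts in M7, M8, M9 and M10. The list summed to 263, 302, 181 and 288 CPM, nearly all of it from *Hand2*, whose groups overlapped (edgeR adjusted p = 0.418). In RNA from a mixed sample, fewer cells of a type and less RNA per cell cannot be told apart, and the part of these marker shifts in the kinase results was not tested beyond the scalings given here.

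The deleted gene was examined first. *Syk* (ENSMUSG00000021457, chr13:52583173-52648792, plus strand, GRCm38) had 765 and 569 counts in M7 and M8, labelled SYK WT, and 4033 and 2944 counts in M9 and M10, labelled SYK KO. After TMM normalization, which scales libraries on the assumption that most genes are unchanged, these were 27.9 and 23.2 CPM against 196 and 160 CPM. Both libraries labelled SYK KO lay above both libraries labelled SYK WT, which goes against the labels. The log2 fold change was 2.80 (SE 0.19, 95% interval 2.33 to 3.27, edgeR adjusted p = 0.000674), a 6.98-fold higher level. A count over the whole gene includes reads outside the deleted exons, so it cannot show whether an incomplete transcript was counted. Every direction below is therefore given for the libraries as labelled.

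*Syk* was then read against macrophage genes of the same library. For each count of *Csf1r*, the receptor that sustains macrophages, there were 0.197 and 0.254 counts of *Syk* in M7 and M8, and 0.244 and 0.260 counts in M9 and M10. Per 1000 counts of the 10 macrophage markers, *Syk* had 21.6 and 25.3 counts in M7 and M8, and 18.9 and 25.8 counts in M9 and M10. The groups overlapped in both ratios (exact two-sided permutation p = 0.667 and p = 1, where 4 libraries allow no p under 0.333). Per 1000 counts of 6 pan-leukocyte genes, in contrast, *Syk* had 76.8 and 85.1 counts in M7 and M8 and fewer, 45.3 and 51.7, in M9 and M10 (exact permutation p = 0.333). The size of this difference depended on the gene used. For each count of *Ptprc*, a gene of this list, there were 0.864 and 0.993 counts of *Syk* in M7 and M8. In M9 and M10 there were 0.789 and 0.831 (exact permutation p = 0.333).

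Over the 9 kinases, edgeR called 6 higher in the libraries labelled SYK KO (*Syk*, *Lyn*, *Fgr*, *Fyn*, *Btk* and *Csk*) and 3 lower (*Zap70*, *Src* and *Yes1*), but scaling to macrophage markers left 1 higher and 5 lower, and scaling to pan-leukocyte genes left 0 higher (0 also at an unadjusted p under 0.05) and 5 lower. Of all genes tested, 0.827% were called higher and 86.3% lower under the macrophage scaling, and 0.377% higher and 92.1% lower under the pan-leukocyte scaling, so most genes were lower there. DESeq2 made the same number of calls, 6 higher and 3 lower. Under TMM, 22.7% of the 16451 genes tested were called higher and 16.7% lower. In CPM the 2 libraries of one label lay beyond both of the other for all 9 kinases, as they did for 38.0% of the genes tested in the higher direction and 37.2% in the lower. The median log2 fold change was 1.13 over the 9 kinases and 0.02 over all genes tested. The kinases thus fell into a group with large differences, *Fgr*, *Btk*, *Lyn* and *Syk*, a group with smaller positive differences, *Csk* and *Fyn*, and a group with negative differences, *Src*, *Yes1* and *Zap70*.

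**Figure D1:**
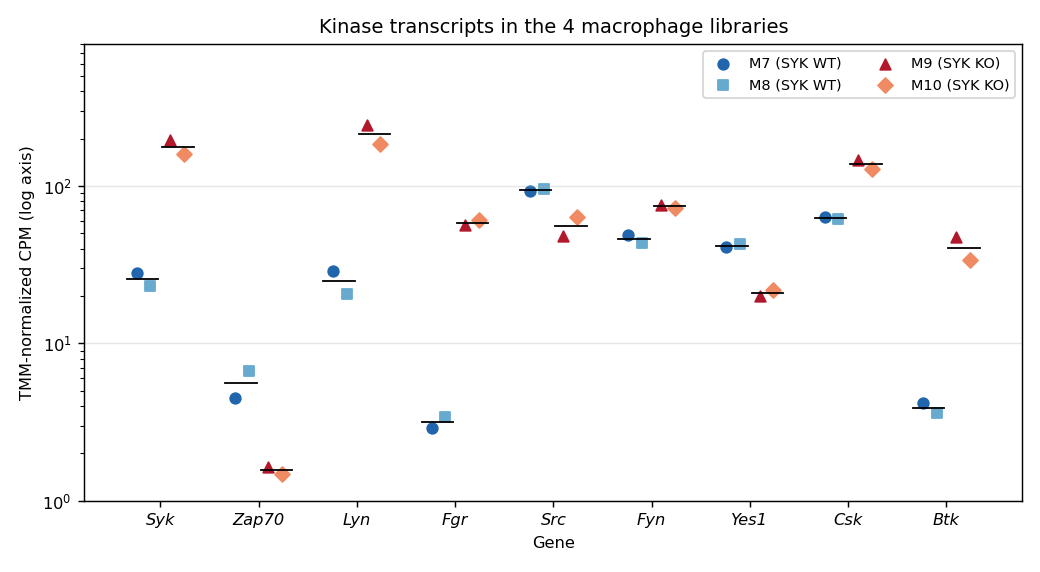
TMM-normalized CPM (log axis) of the 9 kinase genes in each library, with bars at the mean of the 2 libraries of a label. *Fgr* ran from 2.92 and 3.42 CPM in M7 and M8 to 56.3 and 60.5 CPM in M9 and M10, while *Src* ran from 93.0 and 95.2 CPM to 48.3 and 63.8 CPM. The directions of *Syk*, *Lyn*, *Fyn*, *Btk* and *Csk* turned under at least 1 scaling to marker genes, those of *Fgr*, *Src*, *Yes1* and *Zap70* under none of the settings run.

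The start regions of the kinase genes were read to place the group that was higher beside the group that was lower. RefSeq windows of 250 bases before a start site (GRCm38.p6) were at hand for 8 of the 9 genes, 12 windows in all. The windows of *Src* and *Fyn*, both windows of *Syk* and the last window of *Zap70* overlapped an exon of the same gene. These are therefore not purely upstream sequence and are not shown. The *Btk* window lies inside the span of the gene given below, since the RefSeq start used here differs from the start of that span. Shown here, 5′ to 3′ on the gene's strand, are the windows of *Fgr* (chr4:132973845-132974094) and *Btk* (chrX:134583141-134583390, minus strand), which had the largest positive differences, and of *Yes1* (chr5:32610921-32611170) and the first window of *Zap70* (chr1:36761548-36761797), which were lower. Capitals mark GAGGAA, the core bound by the myeloid factor PU.1, or GGGCGG, the GC box bound by Sp1, on either strand.
Fgr: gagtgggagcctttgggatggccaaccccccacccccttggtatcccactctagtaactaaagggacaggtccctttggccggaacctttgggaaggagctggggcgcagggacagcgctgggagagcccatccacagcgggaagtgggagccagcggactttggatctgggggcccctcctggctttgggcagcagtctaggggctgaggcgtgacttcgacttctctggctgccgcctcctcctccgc
Btk: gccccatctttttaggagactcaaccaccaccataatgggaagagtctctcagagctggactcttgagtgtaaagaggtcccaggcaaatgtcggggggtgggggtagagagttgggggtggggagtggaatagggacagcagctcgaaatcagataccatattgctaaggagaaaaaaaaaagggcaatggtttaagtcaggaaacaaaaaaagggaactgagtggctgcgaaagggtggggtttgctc
Yes1: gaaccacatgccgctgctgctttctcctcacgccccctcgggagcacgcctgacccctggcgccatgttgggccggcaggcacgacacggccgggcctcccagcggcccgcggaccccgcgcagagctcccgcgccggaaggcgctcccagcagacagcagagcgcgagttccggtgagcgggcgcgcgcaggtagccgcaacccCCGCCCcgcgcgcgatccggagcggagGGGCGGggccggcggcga
Zap70: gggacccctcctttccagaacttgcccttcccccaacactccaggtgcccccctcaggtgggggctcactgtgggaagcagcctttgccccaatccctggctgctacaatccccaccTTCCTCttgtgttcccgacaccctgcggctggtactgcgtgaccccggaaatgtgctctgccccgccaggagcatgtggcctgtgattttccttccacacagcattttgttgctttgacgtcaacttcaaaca

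The windows of *Fgr* and *Btk* held neither motif. *Yes1* held GGGCGG on both strands and *Zap70* held GAGGAA once. Over the 12 windows, GAGGAA was found in 6, in the genes *Syk*, *Zap70*, *Src* and *Csk*, against 23.3% of the 32851 windows of all genes. GGGCGG was found in 3, in *Src*, *Fyn* and *Yes1*, against 32.7% of all windows, and TATAAA in 0 against 12.4%. The matches in *Syk*, *Src* and *Fyn*, and the CpG counts of these 3 genes below, come from windows that overlap an exon of the same gene. Among the genes that were lower under TMM, *Src* had 40 CpG sites in its window, *Yes1* 37, and *Zap70* 6, 2 and 7 in its 3 windows. Among those that were higher, *Syk* had 27 and 2, *Fyn* 21, *Csk* 7 and 16, *Fgr* 9 and *Btk* 3, so the ranges overlapped, and the median of all windows was 6. A match describes letters in the window and no match says only that these letters are not in it.

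Under TMM, *Zap70* differed in the direction opposite to its paralog. *Zap70* (ENSMUSG00000026117, chr1:36761798-36782818, plus strand), the ITAM-binding kinase of T and NK cells, had 124 and 164 counts in M7 and M8 and 34 and 27 counts in M9 and M10. These were 4.52 and 6.67 CPM against 1.65 and 1.47 CPM. The groups did not overlap, and the level was 3.57-fold higher in the libraries labelled SYK WT (log2 fold change -1.84, SE 0.43, edgeR adjusted p = 0.0175). The adjusted p was 0.0738 without M7 and 0.259 without M8. *Syk* therefore had 6.17 and 3.47 counts per *Zap70* count in M7 and M8, and 119 and 109 in M9 and M10.

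Most T cell markers differed in the direction opposite to *Zap70*. The T cell receptor subunit *Cd3e* had 2 and 1 counts in M7 and M8 and 30 and 41 counts in M9 and M10. Of 6 T cell markers, 4 passed the test as higher in M9 and M10. *Cd247* (12, 13, 17 and 0 counts, edgeR adjusted p = 0.918) and *Trac* (14, 8, 25 and 26 counts, edgeR adjusted p = 0.0894) did not pass. The 6 markers summed to 1.68 and 1.38 CPM against 8.20 and 8.94 CPM. Of 5 NK cell markers, 3 passed the low-count filter and 1, *Klrk1*, was higher. The 5 summed to 5.87 and 5.70 CPM against 15.5 and 9.54 CPM. *Klrk1* alone gave 1.42 and 0.732 CPM in M7 and M8 and 9.95 and 3.98 CPM in M9 and M10. The groups of *Gzma*, *Klrb1c*, *Eomes* and *Ncr1* overlapped. *Lck*, the Src-family kinase that acts with Zap70 at the T cell receptor, had 134, 94, 84 and 105 counts in M7, M8, M9 and M10, or 4.89, 3.82, 4.08 and 5.72 CPM. Its groups overlapped, and the 95% interval of its log2 fold change, -0.74 to 1.07, included 0 (edgeR adjusted p = 0.750). The ratio of *Zap70* to *Lck* counts was 0.925 and 1.74 in M7 and M8 and 0.405 and 0.257 in M9 and M10. Cells other than T and NK cells that could hold *Zap70* RNA were not tested.

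Among the Src-family kinases, the myeloid members *Lyn* and *Fgr* were higher in the libraries labelled SYK KO, although *Lyn* turned negative under the pan-leukocyte scaling. *Lyn* (ENSMUSG00000042228, chr4:3678115-3813122, plus strand), which phosphorylates both activating and inhibitory receptors, had 796 and 510 counts in M7 and M8 and 5060 and 3399 in M9 and M10. In CPM these were 29.0 and 20.8 against 246 and 185. The ranges were far apart, and the level was 8.65-fold higher (log2 fold change 3.11, SE 0.25, edgeR adjusted p = 0.000834). Genes on the other strand within *Lyn* held at most 46 counts in any library. *Fgr* (ENSMUSG00000028874, chr4:132974095-133001910, plus strand), a kinase of granulocytes, monocytes and macrophages, had 80 and 84 counts in M7 and M8 and 1160 and 1111 in M9 and M10. Its CPM values were 2.92 and 3.42 against 56.3 and 60.5. *Fgr* had the largest difference of the 9 kinases under TMM, 18.4-fold (log2 fold change 4.20, SE 0.20, 95% interval 3.73 to 4.68, edgeR adjusted p = 0.000486). *Fgr* was also the only one of the 9 called higher when libraries were scaled to macrophage markers, with a log2 fold change of 1.48 (edgeR adjusted p = 0.0137). Neutrophil markers moved with *Fgr*: of 6, 5 were tested and all 5 were higher, with sums of 24.6 and 39.3 CPM in M7 and M8 and 407 and 201 CPM in M9 and M10, and their part in the *Fgr* result was not tested.

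*Fgr* relative to *Lyn* counts was at 0.101 and 0.165 in M7 and M8 and at 0.229 and 0.327 in M9 and M10. The libraries labelled SYK KO lay above the others in this ratio (exact permutation p = 0.333). *Blk*, a B cell member of the family, had 0 counts in all 4 libraries.

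Of the widely expressed members, *Src* and *Yes1* were lower in the libraries labelled SYK KO, and *Fyn* was higher under TMM but negative under both scalings to marker genes. *Src* (ENSMUSG00000027646, chr2:157418444-157471862, plus strand), the founding member of the family and a partner of focal adhesions, had 2550 and 2340 counts in M7 and M8 and 994 and 1170 in M9 and M10. On the CPM scale the values were 93.0 and 95.2 against 48.3 and 63.8. The groups did not overlap, and the level was 1.68-fold higher in the libraries labelled SYK WT (log2 fold change -0.75, SE 0.18, edgeR adjusted p = 0.0205). *Yes1* (ENSMUSG00000014932, chr5:32611171-32687057, plus strand), a close relative of *Src*, had 1123 and 1052 counts in M7 and M8 and 415 and 401 in M9 and M10. In CPM these were 40.9 and 42.8 against 20.1 and 21.9. Its level was 1.99-fold higher in the libraries labelled SYK WT (log2 fold change -0.996, SE 0.16, edgeR adjusted p = 0.00552). *Src* lost its call without M7 (adjusted p = 0.100, edgeR) and without M8 (0.134), and *Yes1* without M8 (0.0604). The ratio of *Src* to *Yes1* counts was 2.27, 2.22, 2.40 and 2.92 in M7, M8, M9 and M10, so the 2 genes stayed within a narrow ratio while both differed between labels. The fibroblast markers were lower in the same libraries as *Src* and *Yes1*, and their part in these results was not tested.

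*Fyn* (ENSMUSG00000019843, chr10:39368855-39565381, plus strand), which acts in T cells, neurons and many other cells, had 1346 and 1066 counts in M7 and M8 and 1566 and 1335 in M9 and M10. Its CPM values were 49.1 and 43.4 against 76.0 and 72.7. Its difference under TMM was the smallest of the 9, 1.61-fold higher in the libraries labelled SYK KO (log2 fold change 0.69, SE 0.15, edgeR adjusted p = 0.0157). The adjusted p was 0.0978 without M7 and 0.225 without M8 (edgeR). With library size as the only scaling, the log2 fold change of *Fyn* was 0.15 (edgeR adjusted p = 0.528), and with macrophage markers it was -2.03.

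Because several Src-family kinases can serve the same receptors, their levels were compared with each other within a library. Counts were divided by summed exon length and scaled to sum to 1000000 per library (length-scaled level), so that genes of different length could be compared. On this scale *Src* had rank 1 of 18 related kinases in M7 (85.0) and M8 (83.8), and ranks 7 and 6 in M9 (24.3) and M10 (24.1). *Lyn* had ranks 4 and 5 in M7 (28.5) and M8 (19.6), and rank 1 in M9 (133) and M10 (75.2). *Csk* held rank 2 in every library, at length-scaled levels of 68.5, 63.8, 86.0 and 57.0. The kinase with rank 1 thus changed from *Src* to *Lyn*, with *Csk* at rank 2 under both labels. The levels of *Lyn* and *Csk* overlapped between M9 and M10, so their order there was not settled. *Syk* had length-scaled levels of 11.9 and 9.51 in M7 and M8, rank 7 in both, and 46.0 and 28.4 in M9 and M10, rank 3 in both. *Fyn*, next to *Syk* in M9 and M10, was at length-scaled levels of 38.3 and 27.6 there, and the 2 kinases overlapped, so their order was not settled. In M7 and M8 the next kinase above *Syk* was *Tec*, at length-scaled levels of 18.7 and 19.3, without overlap.

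The make-up of the Src-family transcripts therefore differed between the labels. Shares were taken of the summed length-scaled level of 7 kinases, *Lyn*, *Fgr*, *Src*, *Fyn*, *Yes1*, *Lck* and *Blk*. *Lyn* took 15.0% and 11.4% of this sum in M7 and M8 and 56.1% and 46.8% in M9 and M10. *Src* took 44.8% and 48.7% in M7 and M8 and 10.3% and 15.0% in M9 and M10. The largest share thus passed from *Src* to *Lyn*. *Lyn* and *Fgr* together held 15.0% ± 2.27 (SD, n = 2) in the libraries labelled SYK WT and 66.3% ± 4.84 (SD, n = 2) in those labelled SYK KO. *Src* and *Yes1* together held 58.9% ± 3.70 (SD, n = 2) and 15.4% ± 3.69 (SD, n = 2). *Fyn* held 23.7% and 22.2% against 16.2% and 17.1%, and *Lck* at most 3.51%. These shares do not depend on the scaling between libraries, and for each of these kinases and sums the 2 labels were further apart than the libraries of 1 label. The sum itself was 189.9 and 172 in M7 and M8 and 236 and 161 in M9 and M10.

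**Figure D2:**
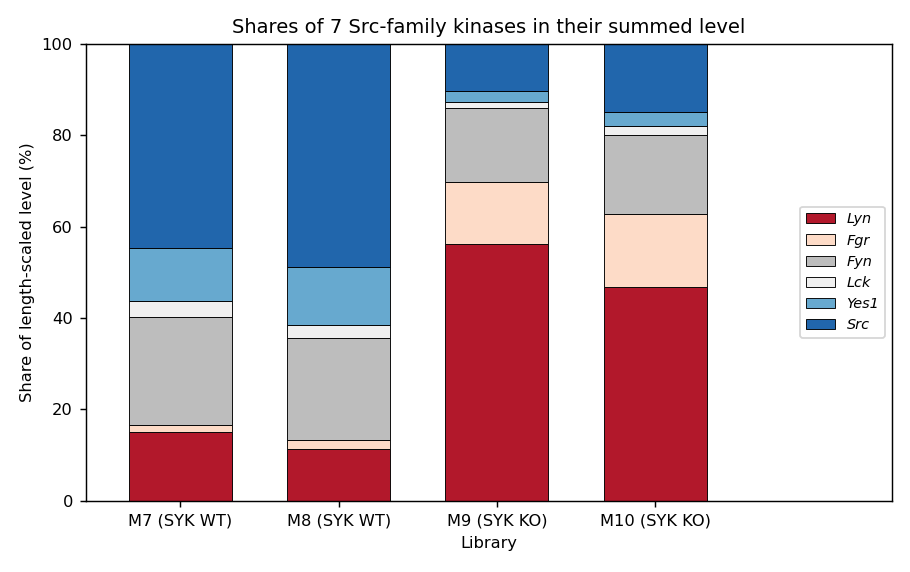
Share of each of 7 Src-family kinases in their summed length-scaled level (%), with 1 stacked bar per library, where *Blk* was at 0 and is not drawn. *Src* was the largest segment in M7 and M8, at 44.8% and 48.7%, and *Lyn* the largest in M9 and M10, at 56.1% and 46.8%.

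*Csk* (ENSMUSG00000032312, chr9:57626646-57653631, minus strand) had 1756 and 1524 counts in M7 and M8 and 3011 and 2362 in M9 and M10. On the CPM scale the values were 64.0 and 62.0 against 146 and 129. Both libraries labelled SYK KO were higher, by 2.18-fold (log2 fold change 1.13, SE 0.16, edgeR adjusted p = 0.00336), but the direction turned when libraries were scaled to macrophage markers (-1.62) or pan-leukocyte genes (-2.39). *Csk* thus differed less than the myeloid kinases it restrains. For each *Csk* count there were 0.436 and 0.373 counts of *Syk* in M7 and M8 and 1.34 and 1.25 in M9 and M10. *Lyn* per *Csk* was 0.453 and 0.335 against 1.68 and 1.44, and *Src* per *Csk* was 1.45 and 1.54 against 0.330 and 0.495. Relative to *Csk*, then, *Lyn* and *Syk* were higher and *Src* lower in the libraries labelled SYK KO (exact permutation p = 0.333 for each ratio). The *Csk* relative *Matk* had 82, 118, 251 and 128 counts, and its log2 fold change of 1.30 was barely past the threshold (SE 0.42, edgeR adjusted p = 0.0483). Without M7, M8 or M9, in this order, the edgeR adjusted p of *Matk* was 0.256, 0.0978 and 0.0824.

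*Btk* (ENSMUSG00000031264, chrX:134542336-134583570, minus strand), which phosphorylates phospholipase C gamma 2 in B cells and myeloid cells, had 115 and 89 counts in M7 and M8 and 982 and 618 in M9 and M10. In CPM these were 4.19 and 3.62 against 47.7 and 33.7. The level was 10.4-fold higher in the libraries labelled SYK KO (log2 fold change 3.38, SE 0.26, 95% interval 2.76 to 3.99, edgeR adjusted p = 0.000729). The call was lost when libraries were scaled to macrophage markers (0.62, edgeR adjusted p = 0.318), and the sign turned with pan-leukocyte genes (-0.15, edgeR adjusted p = 0.765). Of 4 B cell markers tested, *Cd79b* passed as higher, with 13 and 6 counts in M7 and M8 and 143 and 96 in M9 and M10. *Cd79a* (18, 14, 25 and 25 counts, edgeR adjusted p = 0.202), *Pax5* (6, 13, 3 and 29, adjusted p = 0.436) and *Ms4a1* (13, 6, 9 and 22, adjusted p = 0.302) did not pass. The 4 markers summed to 1.82 and 1.59 CPM against 8.74 and 9.37 CPM, of which *Cd79b* gave 6.94 and 5.23 CPM in M9 and M10, and their part in the *Btk* result was not tested. Per 1000 macrophage marker counts, *Btk* had 3.24 and 3.95 counts in M7 and M8 and 4.60 and 5.41 in M9 and M10. Per 1000 pan-leukocyte counts it had 11.5 and 13.3 counts in M7 and M8 and fewer, 11.0 and 10.9, in M9 and M10.

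The related kinase *Tec* differed from *Btk*. *Tec* had 481, 462, 758 and 424 counts in M7, M8, M9 and M10, or 17.5, 18.8, 36.8 and 23.1 CPM. Its log2 fold change was 0.72 with a 95% interval from 0.11 to 1.33 and did not pass the threshold over all genes (edgeR adjusted p = 0.0638). *Btk* per *Tec* count was 0.239 and 0.193 in M7 and M8 and 1.30 and 1.46 in M9 and M10. This ratio was therefore higher in the libraries labelled SYK KO, with groups that did not overlap (exact permutation p = 0.333). The Tec-family kinases *Bmx*, at 2 to 10 counts, and *Txk*, at 2 to 11 counts, were near the floor. Of the remaining relatives, *Frk* had 228, 178, 144 and 75 counts (95% interval of the log2 fold change -1.36 to 0.38, edgeR adjusted p = 0.321), *Srms* had at most 8 counts and *Ptk6* at most 2. Of 9 other kinases of the Src, Tec and Csk families examined, 8 had counts and 4 could be tested. Under TMM 1, *Matk*, was called higher and 0 lower, against 22.7% and 16.7% of all genes tested.

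Ratios within a library carry no scaling between libraries, and they were used to set related genes side by side. *Lyn* per *Yes1* count was 0.709 and 0.485 in M7 and M8 and 12.2 and 8.48 in M9 and M10. *Lyn* per *Src* was 0.312 and 0.218 against 5.09 and 2.91, and *Fgr* per *Src* was 0.0314 and 0.0359 against 1.17 and 0.950. *Syk* and the 2 kinases closest to it had narrower ratios, with *Syk* per *Lyn* at 0.961 and 1.12 against 0.797 and 0.866, and *Syk* per *Btk* at 6.65 and 6.39 against 4.11 and 4.76. Both were lower in the libraries labelled SYK KO, without overlap (exact permutation p = 0.333 each). These pairs were chosen after the values had been seen.

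**Figure D3:**
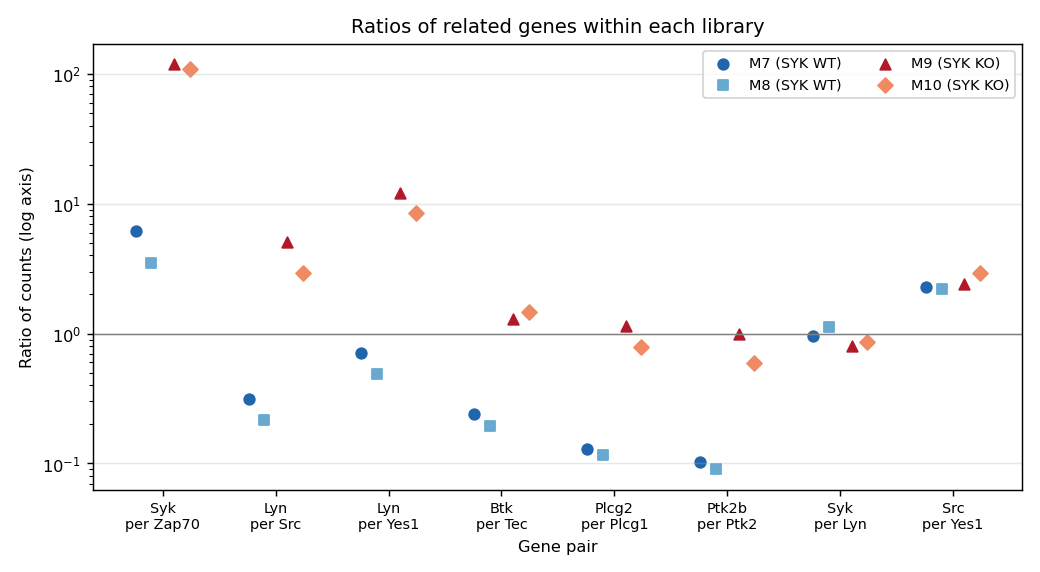
Ratio of the counts of 2 related genes within each library (log axis), not corrected for gene length, so that only libraries are compared and the line at 1 has no further meaning. *Syk* per *Zap70* and *Lyn* per *Yes1* lay far apart between labels, at 3.47 to 6.17 against 109 to 119 and at 0.485 to 0.709 against 8.48 to 12.2, while *Src* per *Yes1* stayed between 2.22 and 2.92 in all 4 libraries.

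The size of the differences depended on what the libraries were scaled to. The median log2 fold change of all genes was 0.02 under TMM, -0.03 with DESeq2 size factors, -0.52 with library size alone, -2.70 with macrophage markers and -3.47 with pan-leukocyte genes. Scaled to macrophage markers, *Syk* had a log2 fold change of 0.07 (edgeR adjusted p = 0.902), *Lyn* 0.38 (0.480) and *Btk* 0.62 (0.318), so these 3 were called neither higher nor lower. Scaled to pan-leukocyte genes, *Syk* had -0.70 (edgeR adjusted p = 0.0605), *Lyn* -0.39 (0.287), *Btk* -0.15 (0.765) and *Fgr* 0.71 (0.150). *Src*, *Fyn*, *Yes1*, *Zap70* and *Csk* were called lower under both of these scalings. A change of scaling shifts all genes by nearly the same amount. Values relative to the median of all genes under the same scaling are therefore bound to move little, and their ranges are no test of the calls. Over the 5 scalings, *Syk* lay 2.77 to 2.79 above that median, *Lyn* 3.08 to 3.10, *Fgr* 4.18 to 4.19 and *Btk* 3.32 to 3.37. *Csk* lay 1.08 to 1.11 and *Fyn* 0.67 above it, while *Src* lay at -0.77 to -0.73, *Yes1* at -1.01 and *Zap70* at -1.93 to -1.84.

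**Figure D4:**
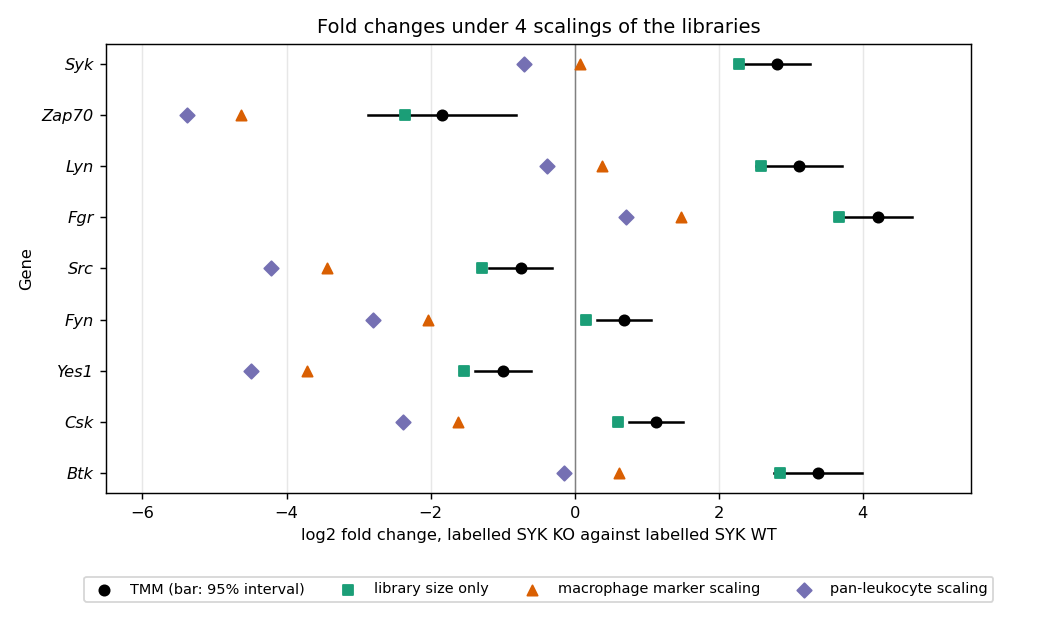
Log2 fold change of each kinase (horizontal axis, libraries labelled SYK KO against SYK WT) under TMM with its 95% interval, and under library size, macrophage-marker and pan-leukocyte scalings. Every kinase moved left by a similar amount, so *Syk* went from 2.80 to -0.70 and *Csk* from 1.13 to -2.39, while *Fgr* stayed above 0 (4.20 to 0.71) and *Zap70*, *Src* and *Yes1* stayed below 0.

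The genes that work with these kinases were counted from lists of receptors, effectors and inhibitors. Of 30 such genes, 28 were tested, 25 were higher in the libraries labelled SYK KO and 1 was lower, against 22.7% and 16.7% of all genes tested. Scaling to macrophage markers, however, left 1 higher and 8 lower, against 0.827% and 86.3% of all genes. *Fcgr1* is both in these lists and among the macrophage markers, so its value under that scaling is partly set by the scaling. The median log2 fold change of the 28 was 2.90, against 1.13 for the 9 kinases and 0.02 for all genes. The receptors and adaptors that carry or pair with ITAMs were higher in all 8 tested, with a median of 3.39. *Fcgr4*, an activating IgG receptor, went from 5.32 and 5.17 CPM to 133 and 176 CPM (log2 fold change 4.88, edgeR adjusted p = 0.000486). *Clec7a*, the beta-glucan receptor Dectin-1, had a log2 fold change of 3.73, and *Fcer1g*, the gamma chain on which Syk docks, 3.64. Scaled to macrophage markers, *Fcgr4* kept its call (2.20, edgeR adjusted p = 0.000101). *Clec7a* (0.97, edgeR adjusted p = 0.0694) and *Fcer1g* (0.92, edgeR adjusted p = 0.0961) lost theirs. *Oscar* had 4 to 10 counts and was not tested.

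Among adaptors and effectors, 9 of 10 tested genes were higher and 1 was lower under TMM, against 22.7% and 16.7% of all genes tested. Their log2 fold changes had a median of 1.73. The adaptors *Blnk* (3.75) and *Lcp2* (3.62) and the exchange factor *Vav1* (3.50), all substrates of Syk or Zap70, had the largest differences under TMM. None of these 3 kept its call when libraries were scaled to macrophage markers (edgeR adjusted p = 0.113, 0.101 and 0.173 in this order). Under TMM the phospholipases differed in direction. *Plcg2*, the form downstream of Syk and Btk, had 26.9 and 24.4 CPM in M7 and M8 and 77.0 and 59.6 CPM in M9 and M10 (log2 fold change 1.41, edgeR adjusted p = 0.00296), but it was called lower when libraries were scaled to macrophage markers (-1.34, edgeR adjusted p = 0.0128) or pan-leukocyte genes (-2.11, edgeR adjusted p = 4.51e-06). *Plcg1*, the form used by T cell and growth factor receptors, had 207 and 210 CPM in M7 and M8 against 67.9 and 75.5 CPM (log2 fold change -1.54, edgeR adjusted p = 0.00148). *Plcg2* per *Plcg1* count was 0.130 and 0.116 in M7 and M8 and 1.14 and 0.789 in M9 and M10, so that this pair, like *Syk* and *Zap70*, changed its ratio between labels. *Lat*, the T cell adaptor, had 4 to 15 counts and was not tested.

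Inhibitors of the pathway were mostly higher under TMM. Of 10 tested, 8 were higher (median of the log2 fold changes 2.38), against 22.7% of all genes tested. None of the 3 with the largest differences kept its call when libraries were scaled to macrophage markers. These 3 were the adaptor *Dok2* (3.44), the phosphatase *Ptpn6*, known as SHP-1 (3.32), and the receptor *Sirpa* (3.14). The ubiquitin ligases *Cbl* (0.55, edgeR adjusted p = 0.0802) and *Cblb* (-0.02, adjusted p = 0.943) were not called.

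**Figure D5:**
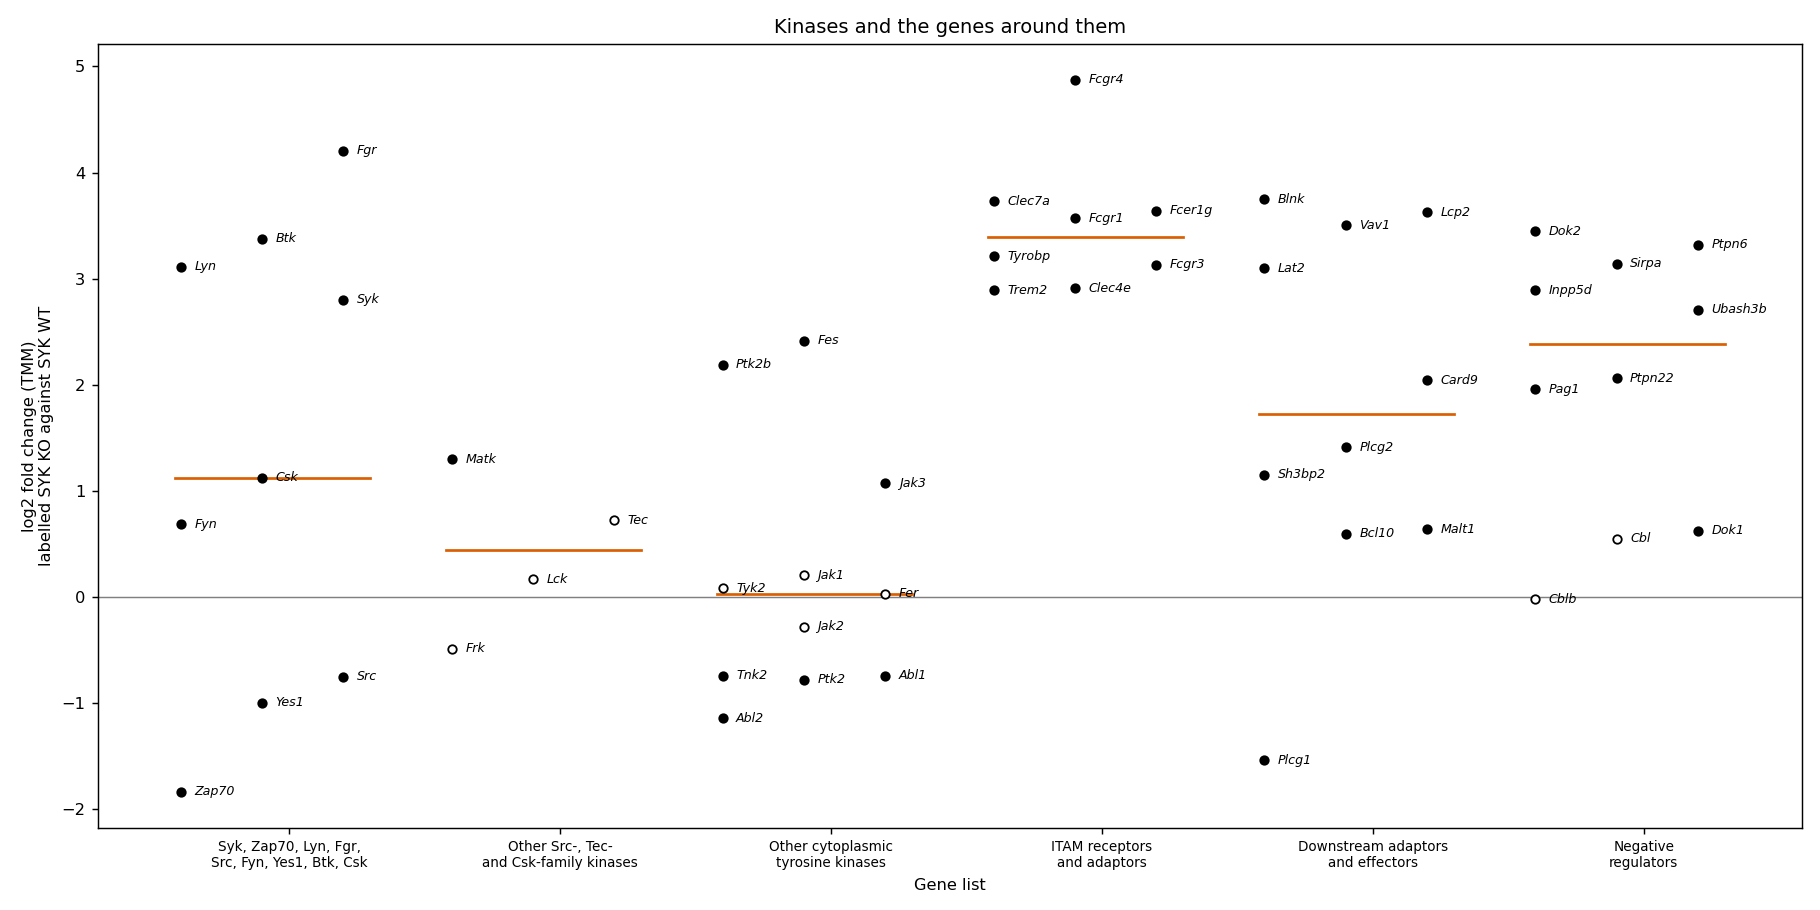
Log2 fold change under TMM (vertical axis) of each tested gene in 6 lists; filled points passed the threshold, open points did not, and orange bars are list medians. Medians were 1.13 for the 9 kinases, 3.39 for ITAM receptors and adaptors and 0.03 for other cytoplasmic tyrosine kinases; scaling to marker genes moved all points down and turned the sign of many.

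Other cytoplasmic tyrosine kinases showed no common direction. Of 12, 11 were tested. Under TMM 3 were higher and 4 lower (median 0.03), against 22.7% and 16.7% of all genes tested. The 3 higher ones turned negative when scaled to macrophage markers. *Fes*, a myeloid kinase, was higher (2.41), as were *Ptk2b* (2.19), known as Pyk2, and *Jak3* (1.07), which serves cytokine receptors. *Abl2* (-1.14), *Ptk2* (-0.78), known as focal adhesion kinase, and *Abl1* (-0.74) were lower. The calls of *Ptk2* (edgeR adjusted p = 0.0862 and 0.193) and *Abl1* (0.0897 and 0.147) were lost without M7 and without M8, and that of *Jak3* without M8 (0.0553). *Ptk2b* and *Ptk2*, a related pair, had a ratio of counts of 0.103 and 0.0901 in M7 and M8 and of 0.994 and 0.596 in M9 and M10. Under TMM with all libraries, *Syk*, *Lyn*, *Fgr* and *Btk* had larger fitted log2 fold changes than any of these 11 kinases. Only the interval of *Fgr* (3.73 to 4.68) lay above that of *Fes* (1.65 to 3.18). The intervals of *Syk* (2.33 to 3.27), *Lyn* (2.52 to 3.71) and *Btk* (2.76 to 3.99) overlapped that of *Fes*. Without M7, *Syk* and *Fes* were both at 2.94, so the order of *Syk* and *Fes* was not settled.

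The genes whose profile over the 4 libraries was most like that of each kinase were searched among 10041 genes of at least 10 CPM on average, by the distance between centred log2 CPM values. Nearest to *Syk* were *Myo1g*, a myosin of blood cells (distance 0.0499), *Ucp2* and *Ikzf1*, a lymphoid and myeloid transcription factor. Nearest to *Lyn* were *Cxcl16*, *Pla2g7* and *Cybb*, the catalytic subunit of the phagocyte oxidase, and nearest to *Btk* were *H2-T23*, *Evi2a* and *Pik3ap1*. *Ear2*, *Olfm1* and *Napsa* were nearest to *Fgr*, at distances from 0.211 to 0.269. The lower kinases had other neighbours, *Slc38a10*, *Zfp943* and *Sppl2b* for *Src* and *Pcx*, *Zfp276* and *5031425E22Rik* for *Yes1*. *Tpm3*, *Pih1d1* and *Ngdn* were nearest to *Fyn*, and *Wdr41*, *Incenp* and *Rel* to *Csk*, while *Zap70* was below 10 CPM and was not searched. Between kinases, *Lyn* and *Btk* were 0.240 apart, *Src* and *Yes1* 0.301, *Syk* and *Lyn* 0.359 and *Fyn* and *Csk* 0.451, whereas *Fgr* and *Yes1* were 4.99 apart. Many other genes lay closer than these partners. Among the genes searched, *Btk* had rank 52 from *Lyn*, *Yes1* rank 582 from *Src*, *Lyn* rank 93 from *Syk* and *Csk* rank 2511 from *Fyn*. With 4 libraries many genes share a profile, and these distances describe the libraries only.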

How the data were processed

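Poly(A) RNA of macrophages was sequenced in 4 libraries, 2 per label. Reads were mapped to mm10 and quantified with Salmon by the authors, and the deposited values are raw counts of each Ensembl gene in whole numbers. The submitters' processing notes name STAR 2.6.1d, Salmon 1.4.0, SAMtools 1.9, Picard 2.26 and MultiQC 1.11. How whole counts were made from Salmon's estimates is not given in the sources used here, and Salmon can divide reads among similar genes. The labels and the study's methods differ on the sequencer, the read layout and the number of replicates, and the labels describe tumor macrophages, bone marrow-derived macrophages and, in the title, an adoptive transfer. Groups follow the genotype labels.

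Symbols, exon lengths and positions came from GENCODE M21 (GRCm38), which matched 54495 genes. Genes past filterByExpr (16451) were tested with edgeR 4.0.16 (quasi-likelihood, TMM, label as the only term, R 4.3.3, limma 3.58.1), with Benjamini-Hochberg adjustment at 0.05. Standard errors were taken from the fitted log2 fold change and its F statistic. The script was tested on simulated data in which few genes changed, with rises and falls drawn evenly, so this did not test the choice of scaling. Within-library ratios were compared by exact two-sided permutation tests. Named genes were all 9 kinases, their relatives with counts, up to 3 largest rises and falls of each other list, and the 3 nearest genes of each kinase. Some genes of these lists are not reported here and were left out of their lists' counts, sums and ranks. Alternatives were other scalings, other filters, DESeq2 1.42.0, leaving out mitochondrial and rRNA-like genes and leaving out each library. The genes, lists and scalings were chosen with earlier results of these data known. Counts of replicates in each label differed beyond sampling noise (chi-square per degree of freedom 50.6 and 168). Floors and counts cover counting error only, since reads that carry no molecular identifier are not separate molecules.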

Additional observations from a re-analysis of the deposited data

How the results depend on the processing

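Of the 9 kinases, *Fgr* kept its positive direction, and *Zap70*, *Src* and *Yes1* their negative direction, under all 12 alternatives, with log2 fold changes from 0.71 to 4.31 for *Fgr*, -5.38 to -1.54 for *Zap70*, -4.22 to -0.65 for *Src* and -4.49 to -0.97 for *Yes1*. No paired analysis was possible because the labels give no replicate number shared between genotypes.

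Scaled to macrophage markers, 1 kinase was higher and 5 lower, 0 of the other family kinases were higher (0 also at an unadjusted edgeR p under 0.05) and 4 lower, 1 pathway gene was higher and 8 lower, and 136 of all genes were higher and 14200 lower. Scaled to pan-leukocyte genes, 0 kinases were higher and 5 lower, 0 other family kinases were higher and 4 lower, 1 pathway gene was higher and 11 lower, and 62 of all genes were higher and 15145 lower. With library size only, 1677 of all genes were higher and 5411 lower. Other family kinases numbered 0 higher with DESeq2 size factors and without mitochondrial and rRNA-like genes (edgeR, 2 each at an unadjusted p under 0.05) and with library size only (0), since *Matk* lost its call, and 2 with all genes of at least 1 count, where *Tec* gained one. Leaving out 1 library at a time gave 0 to 3 kinases lower, 0 to 2 other family kinases higher and 0 to 1 lower, 1478 to 5010 of all genes higher and 807 to 4745 lower, and the kinases lower numbered 1 without M7 and 0 without M8 (edgeR, 2 at an unadjusted p under 0.05), where 1 library stands for its label and is taken to vary like the others.

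Signs that turned, scaled to macrophage markers and to pan-leukocyte genes in this order, were those of *Fyn* (-2.03, -2.81), *Csk* (-1.62, -2.39), *Lck* (-2.48, -3.27), *Tec* (-2.09, -2.84), *Matk* (-1.57, -2.30), *Ptk2b* (-0.55, -1.32), *Jak3* (-1.67, -2.44), *Fes* (-0.27, -1.06) and *Plcg2* (-1.34, -2.11). Under pan-leukocyte scaling alone these were *Syk* (-0.70), *Lyn* (-0.39), *Btk* (-0.15), *Vav1* (-0.011), *Ptpn6* (-0.21), *Sirpa* (-0.37) and *Dok2* (-0.056). *Lck* was also at -0.38 with library size only and from -0.082 to 0.35 when 1 library was left out. Single genes were followed for the kinases under study, their tested relatives, the largest rises and falls of each other list, and *Plcg2*. Over these genes, 291 values under an alternative kept their direction and side of the threshold, 36 lost a call, 5 gained one and 28 turned. Cell type markers, *Cbl*, *Cblb* and the nearest genes were not included. The marker scalings lower every gene by construction, by the rise of the marker list used. Which scaling is right was not tested. With 2 libraries per label, a difference under the spread between libraries could not be called at this depth.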
